A study of Mus musculus with 39 samples.

Results

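The 27 arrays of mouse breast tissue whose genotype label includes K5Cre were ordered by their level of Mki67. This nuclear protein gene is expressed in cycling cells and used as a marker of proliferation. The 9 highest arrays were compared with the 9 lowest. These 18 arrays come from a series of 39. Members were chosen by the level itself, the log2 value of the only probe set that names Mki67 alone, so Mki67 was left out of the tests. Genes of the cell cycle went through the same fit and the same p-value adjustment as all others. Nothing is read from their calls, and the question is which other genes went with the rank. The 9 Mki67-high arrays came from 9 animals and lay between 10.71 and 11.10 on the log2 scale, with a median of 10.85. The 9 Mki67-low arrays came from 8 animals and lay between 8.96 and 9.98, with a median of 9.53. The 9 arrays in between, from 10.06 to 10.53, entered the fits as a middle class. Next to the upper limit the ninth array had 10.71 and the tenth 10.53, and next to the lower limit the values were 10.06 and 9.98, so the lower limit cuts through a run of close values.

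Expression was measured on Affymetrix 3' arrays, 1 array per tissue sample, and no replicate beyond the array is given for most animals. Of the ranked arrays 19 are labelled Quadruple (SB/Tg/K5Cre/Bcat) and 8 Triple (SB/Tg/k5Cre), called triple K5Cre below. All 27 share the SB, Tg and K5Cre elements and the tissue label breast, and the quadruple arrays add Bcat. By its title the series used Sleeping Beauty, a mobile DNA element that mutates genes by insertion, and K5Cre is the usual name of a Cre recombinase driven by the keratin 5 promoter, which is active in basal epithelium. The labels used here give no age, sex, treatment or histology, do not say what kind of allele Bcat is, and do not say which insertions a sample carried. Outside the ranking stand 12 arrays: 3 of the genotype Triple (SB/Tg/Bcat), 4 of normal mammary gland, 3 ventral tumours of 1 Bcat +/- animal and 2 of bcat +/-, masses. Of the normal glands 1 came from a quadruple, 2 from triple K5Cre and 1 from a triple Bcat animal, and both triple K5Cre animals also gave a ranked array, triple K5Cre 2 (Mki67-low) and triple K5Cre 3 (middle).

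Both ends of the ranking held 6 quadruple and 3 triple K5Cre arrays. Averaged by animal, Mki67 was 10.33 ± 0.53 in the 15 quadruple animals and 10.22 ± 0.67 in the 8 triple K5Cre animals (mean ± SD), and the difference of 0.10 did not pass a two-sided exact permutation test (p = 0.68). Quadruple 1 and quadruple 12, both Mki67-low, came from 1 animal. The 3 arrays of another animal fell 2 in the middle class and 1 at the lowest rank (quadruple 9, 8.96), so samples of that animal differed by up to 1.58 log2 units. In the arrays outside the ranking Mki67 ran from 7.24 in a normal gland to 10.56 in a triple Bcat breast array, and all 4 normal glands lay below every ranked array.

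**Figure D1:**
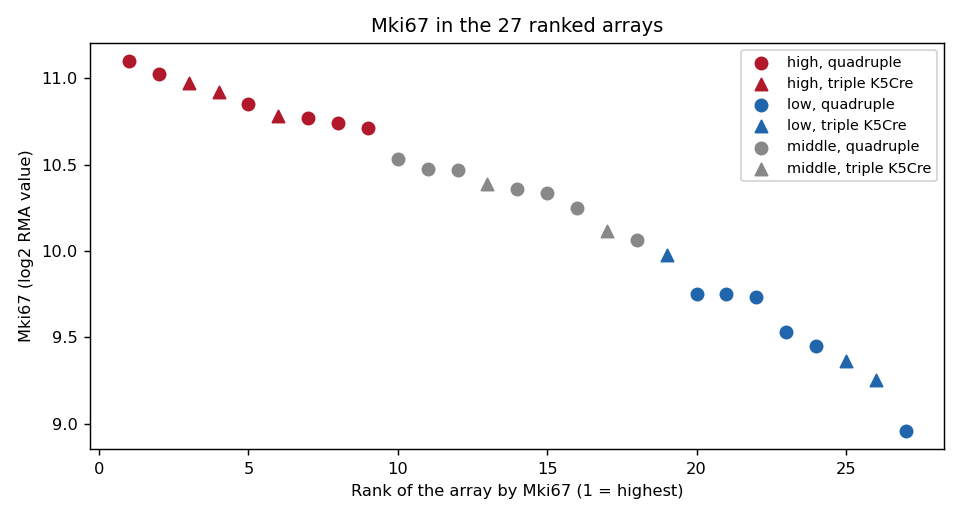
Mki67 as log2 RMA value (vertical axis) by rank (horizontal axis) in the 27 ranked arrays. Points are single arrays, red for the 9 highest, grey for the 9 in between and blue for the 9 lowest, circles for quadruple and triangles for triple K5Cre, and each end holds 6 circles and 3 triangles.

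Proliferating cells copy their DNA, build a spindle and divide, and before they divide they have to double their mass. That growth needs ribosomes, which are assembled in the nucleolus from ribosomal RNA and protein, nucleotides for DNA and RNA, spliceosomes to process new transcripts, and chaperonins that fold new proteins. A piece of breast tissue or tumour also holds cells that cycle less, among them fibroblasts, endothelium, fat, muscle and immune cells, and an array of the whole piece reads all of them together. In such bulk samples fewer cells of a type and less RNA per cell cannot be told apart.

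Each of 18193 genes other than Mki67 was tested with limma for a difference between the Mki67-high and Mki67-low arrays, with the genotype as a term and arrays of 1 animal as a block, and a gene is called where its Benjamini-Hochberg adjusted p over all these genes is under 0.05. Differences are log2 units, high minus low, with the standard error (SE). In all 1149 genes were called, 6.32% of those tested: 917 were higher in the Mki67-high arrays (5.04%) and 232 were lower (1.28%). The number was 4104 at an unadjusted p under 0.05. On values normalized again by cyclic loess the split was 610 higher and 344 lower, so the excess of rises was smaller on that scale, and with arrays weighted by their fit it was 3060 and 2068. The median difference over all genes was 0.00. Labels do not say that samples of a genotype were handled separately, and the p-values measure only the spread between these samples.

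The cell cycle lists, which hold 341 measured genes, served to set the rank's companions aside. Of them 252 were called, all higher, and nothing is read from that count because the arrays were chosen for it. For mitosis 144 of 178 genes were higher (median 0.98), for DNA replication 97 of 131 (median 0.73) and for homologous repair and checkpoint 14 of 35 (median 0.44). Spag5, a spindle protein gene, ran from 7.23 to 7.98 (median 7.71) in the Mki67-high arrays and from 5.56 to 6.64 (median 6.01) in the Mki67-low arrays, a difference of 1.61. Kif11, a spindle motor, had medians of 8.86 and 7.16, Aurkb, a kinase of the chromosomal passenger complex, 7.83 and 6.18, and Esco2, a cohesin acetyltransferase, 6.66 and 4.99. All 9 high arrays were above all 9 low arrays for these 4 genes. Among the replication genes, Uhrf1, which maintains DNA methylation behind the fork, differed by 1.53, Dscc1, a clamp loader subunit, by 1.501, Skp2, an F-box protein of the ubiquitin system, by 1.44, and Exo1, an exonuclease, by 1.41. The largest differences of the repair list were 1.24 for Brca1, 1.21 for Rad54b, 1.06 for Rad51ap1 and 1.02 for Chek1, the checkpoint kinase.

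Outside these lists 897 genes were called, 665 higher and 232 lower. The adjustment took in the cell cycle genes, whose many small p-values make its cutoff less strict for the other genes. Calls with an adjusted p close under 0.05, such as those of Rnf43, Cdk4, Cxcl12 and Rpl4, may rest on this. An adjustment without the cell cycle genes was not run. The lists do not hold every cell cycle gene, and the rises still include some, among them Atad5 and Fbxo5, described below. Counts outside the lists are therefore not free of cell cycle genes. The rises were many and small, with a median of 0.48, and 44 of them reached a 2-fold difference. The falls were fewer and larger, with a median of -0.92, and 102 of them reached 2-fold. With a slope on Mki67 over the 27 arrays, 376 of the 665 rises and 48 of the 232 falls kept their call. With 13 arrays at each end, 178 of the rises and 21 of the falls did. In 141 genes, 0.775% of all tested, every Mki67-high array lay above every Mki67-low array, and 56 of those are outside the cell cycle lists. The reverse held for 4 genes, 0.022% of all: Btg2, Tnfrsf1a, Asb1 and Mgat4b, of which the last 2 were not called (adjusted p = 0.0633 and 0.226).

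Genes of ribosome assembly rose as a group. Of 40 measured genes 26 were higher and none was lower, with a median of 0.47, against 5.04% of all genes called higher and a median of 0.00 over all genes. Nop56, a core protein of the box C/D particles that guide methylation of ribosomal RNA, ran from 9.71 to 10.35 (median 10.09) in the Mki67-high arrays and from 8.82 to 9.56 (median 9.23) in the Mki67-low arrays. The classes did not overlap, and the difference was 0.80 (SE 0.12, adjusted p = 0.000247, limma), a 1.74-fold higher level. Nolc1, a nucleolar phosphoprotein, ran from 8.01 to 9.15 (median 9.08) and from 7.798 to 8.39 (median 8.19), with 8 of 9 high arrays above every low array and a difference of 0.77 (SE 0.14, adjusted p = 0.000902). Gar1 and Dkc1, partners in the box H/ACA particles that make pseudouridine, differed by 0.72 and 0.66, and Fbl, the methyltransferase of the box C/D particles, by 0.58. All 9 high arrays were above all low arrays for Gar1 too. Mybbp1a, another nucleolar protein, ran from 10.60 to 11.17 (median 10.91) against 10.23 to 10.51 (median 10.33), with no overlap and a difference of 0.57 (SE 0.08, adjusted p = 8.4e-05).

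Few genes of the mature ribosome were called. Most probe sets of its cytosolic proteins read near the top of the scale. Rpl8, for example, had medians of 13.44 and 13.17, where the highest value of any probe set was 14.61. The probe set that stood for Rps16, which need not be its brightest, lay near the bottom, with a median of 2.81 in both classes. Whether differences can be read at these levels was not tested. Of 20 proteins of the cytosolic ribosome 2 were higher, Rpl8 by 0.22 (SE 0.06, adjusted p = 0.0275) and Rpl4 by 0.19 (SE 0.06, adjusted p = 0.0473), and the list's median was 0.18, with 14 higher at an unadjusted p under 0.05. Rpl8 stayed called in 11 of the 18 fits that leave out 1 array and Rpl4 in 5. Of 25 proteins of the mitochondrial ribosome 8 were higher and none lower (median 0.26). Mrpl12, of its large subunit, ran from 9.77 to 10.45 (median 10.06) against 9.27 to 9.79 (median 9.50), a difference of 0.54 (SE 0.11, adjusted p = 0.00454). Mrps5, of the small subunit, had medians of 7.62 and 7.09 and differed by 0.48 (SE 0.13, adjusted p = 0.0245). The ranges of both genes overlapped, with 8 of 9 high arrays above the highest low array. By limma no subunit of the respiratory chain was called among 30 (median 0.13, 3 higher at an unadjusted p under 0.05), and none of 29 of the proteasome (median 0.11, 4 higher at that level).

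Of the splicing and RNA processing genes 22 of 24 were higher and none was lower, with a median of 0.46. In the quadruple arrays alone 3 of the 24 were called, with a median of 0.47. Hnrnpd, an RNA-binding protein of messenger RNA stability and splicing, ran from 10.61 to 11.46 (median 11.16) against 9.54 to 10.82 (median 10.71), a difference of 0.61 (SE 0.16, adjusted p = 0.0204). Snrpf, a core protein of the spliceosomal particles, ran from 9.26 to 10.54 (median 10.38) against 8.94 to 9.82 (median 9.71), a difference of 0.59 (SE 0.15, adjusted p = 0.0228). In both the classes overlapped, and quadruple 5, the array with the highest Mki67, was the lowest of its class for Snrpf. Hnrnpl, a splicing regulator that is not in the list, was among the genes that followed Mki67 most closely over the 27 arrays (r = 0.81). It ran from 10.24 to 10.54 (median 10.43) against 9.88 to 10.30 (median 9.95), with a difference of 0.41 (SE 0.06, adjusted p = 0.000113).

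Chaperonin and heat shock genes were higher in 11 of 18 cases and lower in none (median 0.37). Hspd1, the mitochondrial chaperonin HSP60, ran from 11.49 to 12.32 (median 11.77) against 11.14 to 11.47 (median 11.27). The classes did not overlap, and the difference was 0.55 (SE 0.10, adjusted p = 0.00133). Hspe1, its co-chaperonin, had medians of 11.78 and 11.40, a difference of 0.47 (SE 0.12, adjusted p = 0.0234), and 1 high array inside the low range. The called members also held 6 subunits of the cytosolic chaperonin, Cct2, Cct3, Cct5, Cct6a, Cct7 and Tcp1, which differed by 0.27 to 0.47.

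Of the enzymes of nucleotide and one-carbon synthesis 8 of 19 were higher and none lower (median 0.41). Pfas, an enzyme of purine synthesis, ran from 6.84 to 7.88 (median 7.59) against 6.59 to 7.39 (median 6.86), a difference of 0.65 (SE 0.14, adjusted p = 0.0062). Mthfd1, a folate enzyme that supplies one-carbon units, ran from 9.01 to 10.08 (median 9.59) against 8.57 to 9.30 (median 8.94), a difference of 0.63 (SE 0.14, adjusted p = 0.00667). The other called members were the purine genes Ppat, Gart, Paics and Gmps, the pyrimidine gene Umps and the serine enzyme gene Shmt2. Amino acid synthesis and ATF4 target genes were mostly not called: 2 of 24 were higher, the transfer RNA synthetase genes Mars1 (0.36, SE 0.09, adjusted p = 0.017) and Aars (0.42, SE 0.12, adjusted p = 0.0368), and the median was 0.08. Aars stayed called in 6 of the 18 fits without 1 array and Mars1 in all 18.

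The counts of these growth lists moved with single arrays, their medians little. Without 1 array at a time the number of called genes was 17 to 30 for ribosome biogenesis (17 without quadruple 4), with medians of 0.43 to 0.49, splicing 15 to 22, chaperonins 7 to 12 (7 without quadruple 4 or quadruple 13) and nucleotide synthesis 5 to 11 (5 without quadruple 4, quadruple 13 or quadruple 2). Of the mitochondrial ribosome genes 2 to 5 were called in 11 of these 18 fits, those without quadruple 1, 4, 9, 12, 13, 17 or 19 or triple K5Cre 4, 5, 7 or 8. On the cyclic loess scale 15, 16, 8, 6 and 3 genes of these 5 lists were higher, in the order ribosome biogenesis, splicing, chaperonin, nucleotide synthesis and mitochondrial ribosome, and none was lower. Without quadruple 2 and quadruple 9, the arrays highest in adipocyte genes, the counts were 14, 15, 7, 5 and 5 in the same order. In the quadruple arrays alone they were 18, 3, 4, 5 and 1, with medians of 0.50, 0.47, 0.36, 0.44 and 0.29, and with adipocyte and muscle covariates they were 15, 9, 5, 4 and 2.

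**Figure D2:**
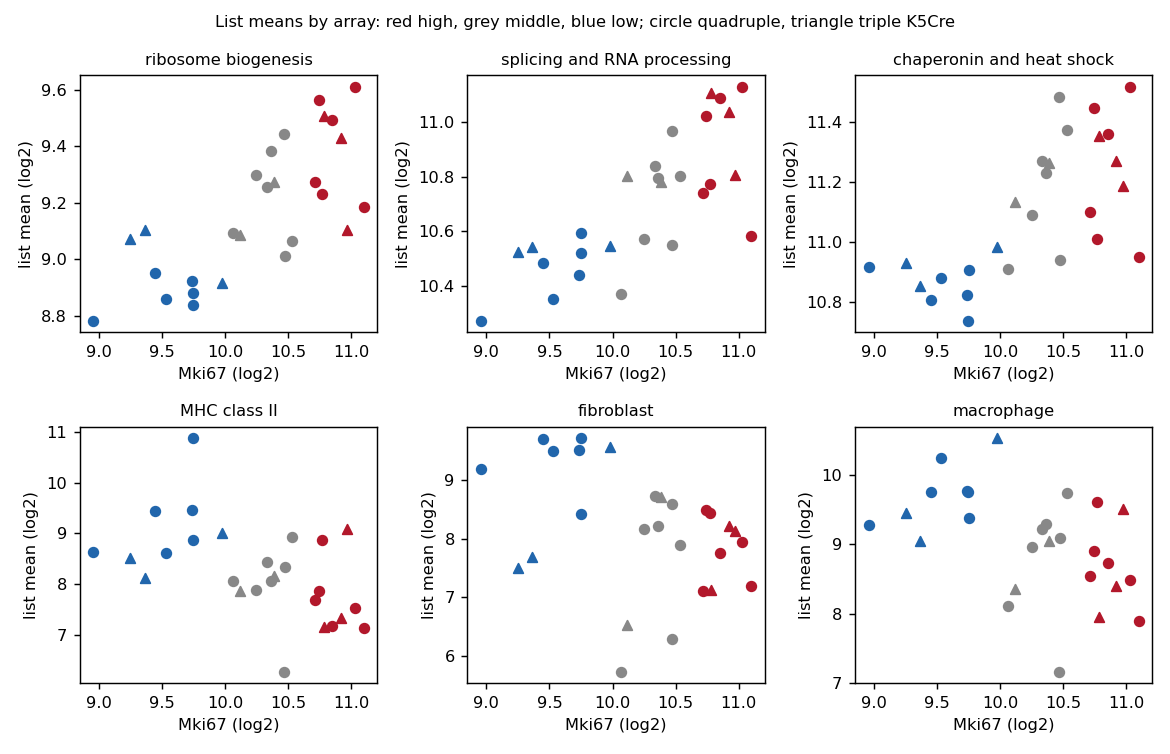
Mean log2 value of the genes of 6 lists (vertical axes) against Mki67 (horizontal axes, log2) in the 27 ranked arrays, 1 point per array, red for Mki67-high, grey for middle and blue for Mki67-low, circles for quadruple and triangles for triple K5Cre. The upper 3 lists run from low means at the left to high means at the right, and the lower 3 run the other way with wider scatter, where the MHC class II means overlap between 8.12 and 9.08.

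Promoters are printed for the called gene with the largest difference in 4 of these lists, to show the letters around the start sites of a proliferation gene, of growth genes and of a falling gene. They are RefSeq windows of 300 bases, 250 before to 50 after the start, on mouse assembly GRCm38.p6, in the direction of the gene. Capitals mark matches, on either strand, to the 3 motifs searched. TTTGAA is the CHR element found in promoters of mitotic genes, CCAAT is the box bound by NF-Y, and CACGTG is the E-box bound by Myc and related factors. The windows are Spag5 at chr11:78301341-78301640 on the plus strand, Nop56 at chr2:130274162-130274461 on the plus strand, Hspd1 at chr1:55088194-55088493 on the minus strand and H2-Aa, of MHC class II, at chr17:34287774-34288073 on the minus strand.
Spag5: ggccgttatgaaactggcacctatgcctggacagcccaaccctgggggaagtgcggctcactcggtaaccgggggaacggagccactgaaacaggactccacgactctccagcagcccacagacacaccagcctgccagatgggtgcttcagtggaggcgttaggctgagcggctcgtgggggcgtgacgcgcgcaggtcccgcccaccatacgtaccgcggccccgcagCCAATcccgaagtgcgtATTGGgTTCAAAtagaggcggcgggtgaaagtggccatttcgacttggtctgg
Nop56: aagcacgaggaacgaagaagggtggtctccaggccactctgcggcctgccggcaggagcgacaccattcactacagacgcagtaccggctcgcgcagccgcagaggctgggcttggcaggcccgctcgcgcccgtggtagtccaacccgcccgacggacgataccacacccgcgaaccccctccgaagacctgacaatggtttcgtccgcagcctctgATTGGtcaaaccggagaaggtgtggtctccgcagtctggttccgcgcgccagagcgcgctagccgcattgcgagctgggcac
Hspd1: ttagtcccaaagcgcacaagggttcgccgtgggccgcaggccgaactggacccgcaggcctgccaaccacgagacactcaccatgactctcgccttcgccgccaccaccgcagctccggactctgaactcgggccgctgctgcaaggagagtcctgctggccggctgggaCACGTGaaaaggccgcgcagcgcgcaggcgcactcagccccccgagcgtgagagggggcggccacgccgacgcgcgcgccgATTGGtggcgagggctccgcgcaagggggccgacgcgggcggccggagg
H2-Aa: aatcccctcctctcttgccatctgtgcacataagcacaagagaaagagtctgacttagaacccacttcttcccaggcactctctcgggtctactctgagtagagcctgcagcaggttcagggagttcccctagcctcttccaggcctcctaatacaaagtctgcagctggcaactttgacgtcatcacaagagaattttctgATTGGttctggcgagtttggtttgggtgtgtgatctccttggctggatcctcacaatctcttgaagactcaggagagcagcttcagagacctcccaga

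Spag5 carries 2 CCAAT boxes, at -20 and in reverse at -3, followed by a reverse CHR element at 3 bases after the start. Nop56 has 1 CCAAT box in reverse at -32, Hspd1 has an E-box at -80 and a reverse CCAAT box at 1, and H2-Aa has a reverse CCAAT box at -48. Over the first window of each of 27025 genes, 18.1% hold a CHR element, 37.9% a CCAAT box and 7.24% an E-box. The CHR element was in 51.4% of the 144 mitosis genes with a window and in 17.7% of the 113 replication genes, and the CCAAT box in 63.9% and 61.9%. Among the growth lists the E-box was in 22.9% of 35 ribosome biogenesis genes, 17.6% of 17 nucleotide genes, 13.3% of 15 chaperonin genes and 4.55% of 22 splicing genes. The CCAAT box was in 63.6% of the splicing genes and 40% of the ribosome biogenesis genes. Of 4 MHC class II genes with a window 3 held a CCAAT box, and none held either of the other motifs. A match describes letters only.

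Genes outside the cell cycle lists were also ordered by their correlation with Mki67 over the 27 arrays, which share the array type and, in 3 cases, an animal, and r is given as a description. The highest was Atad5 (r = 0.87), which unloads the replication clamp from DNA and so belongs to replication although no list held it. It ran from 6.13 to 7.08 (median 6.73) against 5.15 to 6.14 (median 5.54), a difference of 1.07 (SE 0.15, adjusted p = 7.36e-05). Fbxo5, an inhibitor of the anaphase-promoting complex and likewise a cell cycle gene (r = 0.83), differed by 1.11 (SE 0.18, adjusted p = 0.000494). Trim28, a corepressor that silences transposable elements (r = 0.85), ran from 10.15 to 10.73 (median 10.47) against 9.58 to 10.15 (median 9.71), a difference of 0.66 (SE 0.10, adjusted p = 0.000141). Cse1l, the exporter that recycles importin alpha from the nucleus (r = 0.82), differed by 0.54 (SE 0.08, adjusted p = 0.000265). For each of these 4 genes 8 of 9 high arrays were above all low arrays, and each was called in all 18 fits without 1 array. Hnrnpl and Mybbp1a, described above, complete the 6 highest.

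The 4 lowest correlations belonged to Btg2 (r = -0.80), Gabarap (r = -0.72), Osmr (r = -0.68) and Tmem30a (r = -0.67). Btg2, an antiproliferative gene induced by p53 and by growth arrest, ran from 7.90 to 8.83 (median 8.40) in the Mki67-high arrays and from 8.86 to 9.84 (median 9.35) in the Mki67-low arrays. It fell by 0.89 (SE 0.15, adjusted p = 0.000514) with no overlap between the classes. Tmem30a, a subunit of phospholipid flippases, ran from 9.73 to 10.26 (median 9.98) against 10.14 to 10.79 (median 10.58) and fell by 0.55 (SE 0.10, adjusted p = 0.0021). Osmr, the oncostatin M receptor, had medians of 9.51 and 10.14 and fell by 1.08 (SE 0.24, adjusted p = 0.00685). Gabarap, an autophagy protein of the ATG8 family, had medians of 11.32 and 11.61 and fell by 0.30 (SE 0.08, adjusted p = 0.0292), a call kept in 14 of the 18 fits without 1 array. Tnfrsf1a, the first TNF receptor, fell by 0.40 (SE 0.08, adjusted p = 0.00354).

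**Figure D3:**
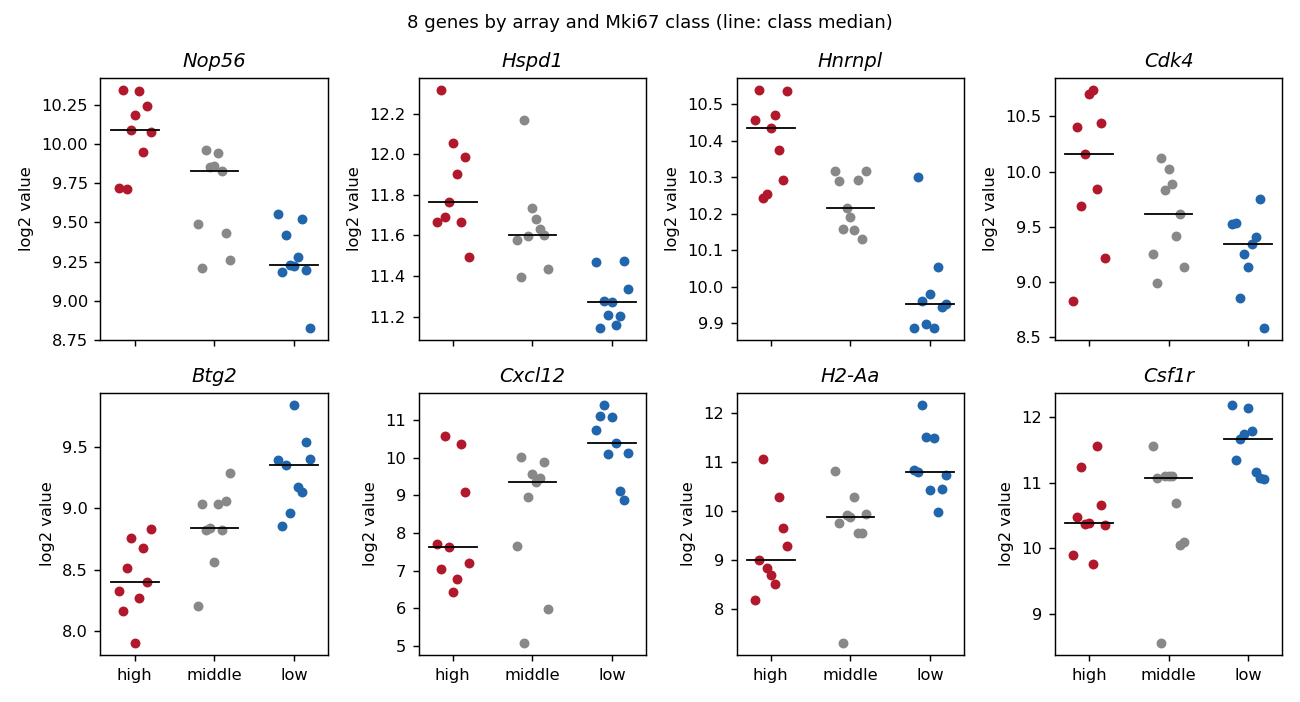
Log2 value (vertical axes) of 8 genes in each of the 27 arrays by Mki67 class (horizontal axes), 1 point per array and a line at each class median. Nop56 and Hspd1 separate upward and Btg2 downward without overlap between high and low, while Hnrnpl, Cdk4, Cxcl12, H2-Aa and Csf1r overlap.

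Btg2 was the only called gene among 22 of cell cycle inhibition and quiescence, and the median of that list was -0.03. At an unadjusted p under 0.05, 4 of its genes were lower and 0 higher. Without 1 array at a time 1 to 3 of them were called, all lower. The inhibitor genes Cdkn1a (0.41), Cdkn1b (0.20) and Cdkn1c (1.30) had adjusted p of 0.652, 0.517 and 0.25. The list of 17 p53 targets does not hold Btg2, and 1 of its genes was called. It was Fas, a death receptor, which ran from 4.82 to 6.65 (median 5.77) against 6.06 to 7.39 (median 6.62) and fell by 0.99 (SE 0.24, adjusted p = 0.0153). Of 19 immediate early genes 1 was called, Ccn1, a matrix protein and YAP target, which fell by 1.16 (SE 0.33, adjusted p = 0.0364) with medians of 7.36 and 8.63. Ccn1 stayed called in 10 of the 18 fits without 1 array and Fas in all 18.

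Upstream of the cycle, 1 of 13 genes of the Myc family, its partners and the D-type cyclins and their kinases was called. Cdk4, the kinase of the D-type cyclins, ran from 8.83 to 10.74 (median 10.15) against 8.58 to 9.75 (median 9.34), a difference of 0.73 (SE 0.22, adjusted p = 0.0455). It stayed called in 5 of the 18 fits without 1 array. Myc itself ran from 9.12 to 10.06 (median 9.79) against 8.61 to 9.71 (median 9.11), with all 9 high arrays above the low median, and its difference of 0.60 (SE 0.18) had an adjusted p of 0.05002 and was not called. In the fits without 1 array Myc was called in 5 of 18, as many as Cdk4, so both lie close to the cutoff. Ccnd1, cyclin D1, had medians of 12.25 and 11.20 and a difference of 0.70 (SE 0.26, adjusted p = 0.104).

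Since Bcat is in the genotype of the quadruple arrays, Wnt signalling was examined, in which beta-catenin carries the signal into the nucleus. Ctnnb1, its gene, had medians of 13.05 and 12.77, all 9 high arrays above the low median, and a difference of 0.26 (SE 0.10, adjusted p = 0.127). Of 31 Wnt targets and modulators 2 were higher and 1 lower, with a median of 0.04. Nkd2, a Dishevelled-binding feedback inhibitor, ran from 8.37 to 11.41 (median 10.85) against 6.53 to 10.67 (median 7.59), a difference of 2.21 (SE 0.62, adjusted p = 0.0312). Rnf43, the ubiquitin ligase that removes Wnt receptors, had medians of 7.78 and 6.06 and a difference of 1.5003 (SE 0.45, adjusted p = 0.0441). Sfrp4, a secreted Wnt antagonist, had medians of 6.17 and 7.001 and fell by 0.73 (SE 0.20, adjusted p = 0.0284). The ranges of these 3 genes overlapped, and they stayed called in 10, 5 and 11 of the 18 fits without 1 array. Axin2, a direct target, had medians of 8.57 and 6.99 with ranges of 5.50 to 9.48 and 5.29 to 8.92, and its difference of 0.88 (SE 0.61, adjusted p = 0.423) was not called.

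The 10 largest rises outside the cell cycle lists had differences of 2.17 to 3.14. Tex36, a testis gene, ran from 4.15 to 9.93 (median 8.63) against 3.49 to 7.92 (median 3.98), a difference of 3.14 (SE 0.90, adjusted p = 0.0351). Slc6a15, a neutral amino acid transporter, ran from 5.65 to 10.12 (median 8.63) against 2.98 to 7.38 (median 4.88), a difference of 3.08 (SE 0.81, adjusted p = 0.0225). Cybrd1, an iron reductase, ran from 5.997 to 11.0015 (median 8.37) against 3.31 to 7.02 (median 4.77), a difference of 2.97 (SE 0.88, adjusted p = 0.0429). In all 3 each high array was above the low median and 6 or 7 were above every low array. Lamp5, a lysosomal membrane protein, differed by 2.55 (SE 0.59, adjusted p = 0.0104), and its low arrays all lay between 3.44 and 4.05. Its high arrays ran from 3.65 to 8.77 (median 6.45), with 7 of 9 above every low array and the others inside the low range.

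The list also holds transcription factors of stem and progenitor cells. Tfcp2l1 ran from 7.94 to 11.46 (median 10.49) against 5.03 to 9.999 (median 7.08), a difference of 2.48 (SE 0.67, adjusted p = 0.0266). Myb ran from 8.37 to 11.61 (median 10.36) against 5.61 to 9.34 (median 7.20), a difference of 2.42 (SE 0.65, adjusted p = 0.026), with 7 of 9 high arrays above every low array. The others were Adamts20, a secreted metalloprotease (2.52), Nkd2, Catsperz, a subunit of the sperm calcium channel (2.17), and Tal2, a helix-loop-helix factor (2.17), with low medians of 3.45, 7.59, 4.46 and 3.28. The lowest values of their high arrays were 2.66, 8.37, 3.95 and 3.14, below the low median in all but Nkd2. Of the 10 genes Lamp5 alone stayed called in all 18 fits without 1 array, and the others in 6 (Tal2) to 15 (Slc6a15 and Adamts20).

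The 10 largest falls were mostly secreted proteins. Abi3bp, a matrix protein, ran from 3.39 to 7.25 (median 5.09) against 5.19 to 9.06 (median 8.14) and fell by 2.54 (SE 0.68, adjusted p = 0.025). Cxcl12, a chemokine of stromal cells, ran from 6.44 to 10.59 (median 7.64) against 8.88 to 11.42 (median 10.40) and fell by 2.26 (SE 0.68, adjusted p = 0.0466). Ptx3, a soluble pattern recognition protein, fell by 2.23 (SE 0.67, adjusted p = 0.0441). The classes overlapped for each of these 3, with 5 or 6 high arrays below every low array. Adh1, an alcohol and retinol dehydrogenase, ran from 4.43 to 5.76 (median 5.39) against 5.17 to 10.10 (median 7.02) and fell by 2.11 (SE 0.51, adjusted p = 0.0139). Rarres2, the chemoattractant chemerin, had medians of 6.99 and 8.75 and fell by 2.05 (SE 0.50, adjusted p = 0.0152). Igfbp6, which binds insulin-like growth factor, had medians of 5.96 and 8.08 and fell by 1.87 (SE 0.43, adjusted p = 0.00978). Adh1, Rarres2 and Igfbp6 stayed called in all 18 fits without 1 array. Without quadruple 2 and quadruple 9 together, Adh1 and Rarres2 lost their call (adjusted p = 0.0814 and 0.0791, limma) and Igfbp6 kept it (0.0496). With adipocyte and muscle covariates Adh1, Rarres2 and Igfbp6 all lost it (adjusted p = 0.077, 0.055 and 0.066, limma). The other 4 were Hoxc8, a positional homeobox gene (-2.03), C1ra, a complement protease (-2.01), Gpx3, a secreted peroxidase (-1.98), and Ankrd1, a YAP target also known from muscle (-1.86), called in 4, 9, 17 and 15 of those fits, against 13 for Abi3bp, 4 for Cxcl12 and 8 for Ptx3.

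**Figure D4:**
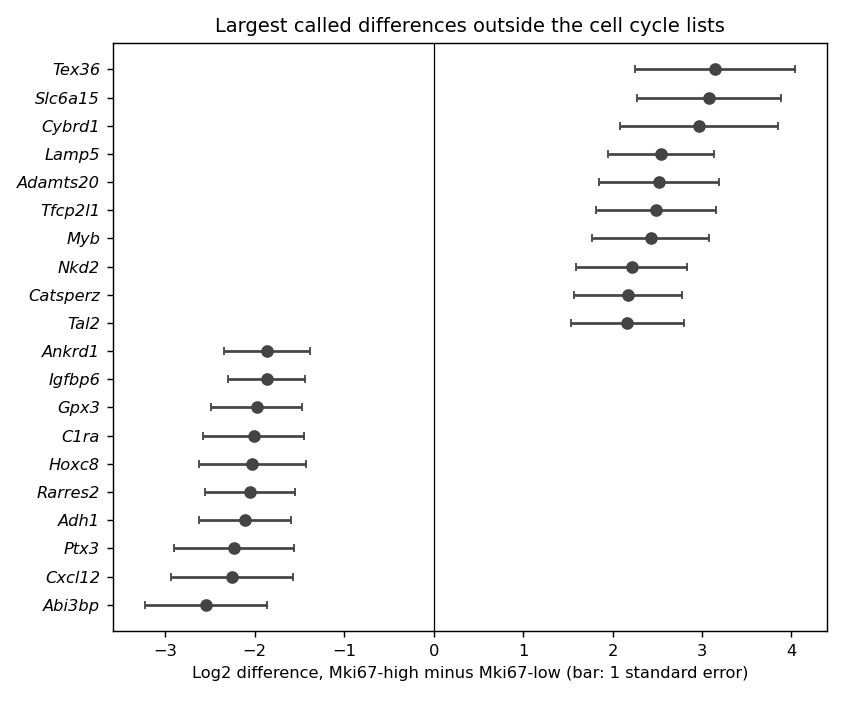
Log2 difference, Mki67-high minus Mki67-low (horizontal axis), of the called genes with the 10 highest and 10 lowest differences outside the cell cycle lists, with bars of 1 standard error. Rises reach 3.14 for Tex36 and falls reach -2.54 for Abi3bp, and the errors of 0.43 to 0.90 are large beside those of the growth genes.

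MHC class II genes, which present peptides to helper T cells and are expressed by antigen-presenting cells, fell together. Of 7 measured genes 6 were lower, with a median of -1.42, against 1.28% of all genes called lower. H2-Aa, the alpha chain of I-A, ran from 8.18 to 11.06 (median 9.01) in the Mki67-high arrays and from 9.98 to 12.17 (median 10.81) in the Mki67-low arrays and fell by 1.61 (SE 0.40, adjusted p = 0.0168). H2-Ab1, its beta chain, ran from 9.31 to 11.44 (median 9.72) against 10.71 to 12.53 (median 11.42) and fell by 1.46 (SE 0.36, adjusted p = 0.0164). In both 7 of 9 high arrays lay below every low array and 1 lay above the low median. Cd74, the invariant chain, fell by 1.44 and Ciita, the transactivator of the class, by 0.84 (adjusted p = 0.0163 and 0.0403), and H2-Ob alone was not called. Without 1 array at a time 4 to 6 genes were called. Without quadruple 2 and quadruple 9 together 1 was called, with a median of -1.27, and in the quadruple arrays alone 2 (median -1.67).

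Stromal and immune lists had negative differences in most of their genes, but few single genes were called. Of 15 fibroblast genes 14 had a negative difference (median -1.33) and 2 were called, Pi16, a marker of adventitial fibroblasts (-1.56, SE 0.39, adjusted p = 0.0168), and Mfap4, a microfibril protein (-1.40, SE 0.39, adjusted p = 0.0326). Pi16 ran from 5.18 to 7.22 (median 5.97) against 5.72 to 8.77 (median 7.64), and Mfap4 had medians of 5.59 and 6.55. The exception was Fbln1, at 0.87 (adjusted p = 0.434), and Dcn, decorin, stood at -0.0047. At an unadjusted p under 0.05, 10 fibroblast genes were lower. Of 15 endothelial genes all were negative (median -0.70), 14 at an unadjusted p under 0.05, and 1 was called, Vwf, the von Willebrand factor, which ran from 5.66 to 8.41 (median 6.15) against 7.15 to 8.99 (median 8.18) and fell by 1.63 (SE 0.36, adjusted p = 0.00718). The endothelial count rose to as many as 7 without 1 array, and the fibroblast count ran from 1 to 3. It was 1 without quadruple 5, quadruple 13, triple K5Cre 5, quadruple 6, triple K5Cre 7, quadruple 12, quadruple 17 or quadruple 1.

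All 14 macrophage genes had a negative difference (median -0.96), and none was called by limma, although 12 had an unadjusted p under 0.05. Csf1r, the receptor that macrophages depend on, ran from 9.77 to 11.55 (median 10.39) against 11.06 to 12.19 (median 11.67), with 7 of 9 high arrays below every low array and a difference of -1.03 (SE 0.32, adjusted p = 0.0513). Adgre1, the F4/80 antigen, had medians of 7.33 and 8.54 and a difference of -1.001 (SE 0.33, adjusted p = 0.0714). The means of the macrophage list ran from 7.89 to 9.61 in the Mki67-high arrays and from 9.06 to 10.53 in the Mki67-low arrays. Among T cell genes 13 of 14 were negative (median -0.65), with Cd3g at -1.90 (SE 0.65, adjusted p = 0.0778) and Cd3e at -0.43 (SE 0.15, adjusted p = 0.0844), and none was called (6 lower at an unadjusted p under 0.05). Of 16 fibrillar matrix genes 15 were negative (median -0.93) and none was called (6 lower at that level), the smallest p belonging to Lox, which crosslinks collagen (-1.83, SE 0.60, adjusted p = 0.0683), and Postn, periostin (-1.02, SE 0.34, adjusted p = 0.0765). Without 1 array up to 5 macrophage, 3 T cell and 2 matrix genes were called.

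Other lists had no gene called by limma. Their medians were -1.20 for chemokines and inflammatory cytokines (3 of 14 genes lower at an unadjusted p under 0.05), -1.03 for neutrophil (4 of 11), -0.80 for B cell and plasma cell (1 of 12), -0.79 for mesenchymal (5 of 16) and -0.48 for interferon response genes (2 of 24). Glycolysis and hypoxia genes had a negative difference in 17 of 21 cases (median -0.26, 4 at an unadjusted p under 0.05), with Bnip3, a mitophagy receptor induced by hypoxia, at -1.34 (SE 0.43, adjusted p = 0.0593) and Pfkp, a phosphofructokinase, at -0.97 (SE 0.35, adjusted p = 0.0942). Epithelial lists had medians of 0.21 for basal and myoepithelial, 0.17 for squamous, -0.02 for luminal, 0.38 for hair follicle and 0.49 for milk protein genes, and at an unadjusted p under 0.05 they held 1 hair follicle gene higher and 1 basal and 1 luminal gene lower. Epcam, a surface protein of epithelium, had medians of 12.45 and 12.40 (difference 0.11, SE 0.46, adjusted p = 0.921). Krt5 and Krt14, the basal keratins, differed by 0.81 and 0.76 and Krt8 and Krt18, the luminal pair, by -0.34 and -0.29, with adjusted p of 0.505 to 0.797. The remaining medians were 0.13 for cholesterol synthesis, 0.10 for Notch, 0.03 for EGF receptor ligands and ERK feedback and -0.06 for clock genes, with 0 to 2 genes in either direction at an unadjusted p under 0.05.

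**Figure D5:**
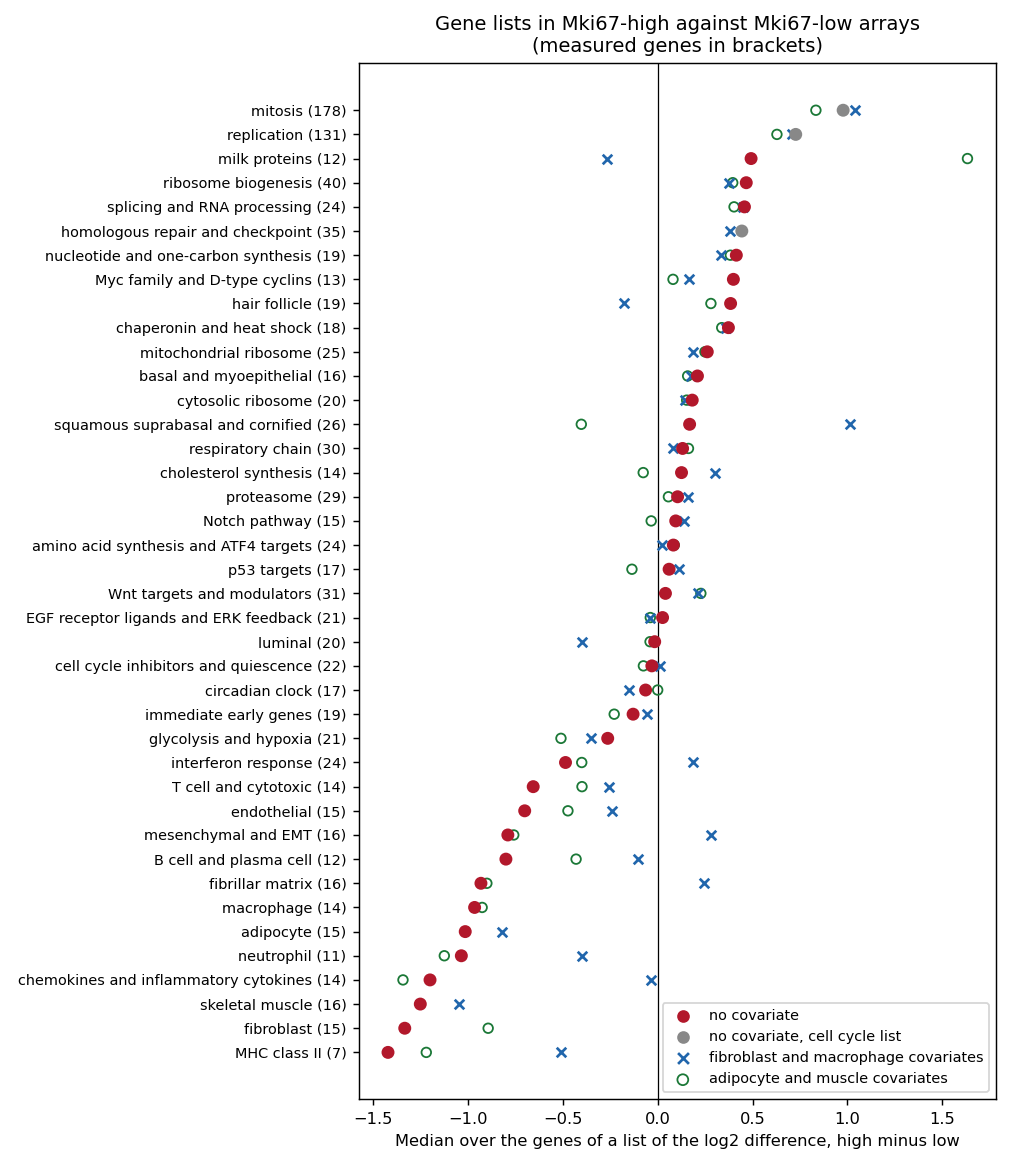
Median over the genes of each of 40 lists of the log2 difference, Mki67-high minus Mki67-low (horizontal axis), without covariates (filled, grey for cell cycle lists) and with the mean of the adipocyte and muscle lists (open) or of the fibroblast and macrophage lists (crosses) as covariates, where a list has no point in a fit that used it. Ribosome biogenesis, splicing and chaperonin medians lie close together in the 3 fits, while MHC class II moves from -1.42 to -0.51 with the fibroblast and macrophage covariates.

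The levels of the lists used as covariates follow by class, and their part in the results was not tested beyond the fits given here. The adipocyte list was negative in 14 of 15 genes (median -1.01, 5 at an unadjusted p under 0.05, none called by limma) and its mean ran from 5.60 to 8.46 in the Mki67-high arrays and from 6.01 to 11.35 in the Mki67-low arrays, led by quadruple 2 and quadruple 9. The skeletal muscle list was negative in 16 of 16 genes (median -1.25, 0 at an unadjusted p under 0.05), and its mean ran from 4.14 to 10.71 and from 4.39 to 11.11, with its highest values in triple K5Cre 7, of the low class, and quadruple 5, of the high class. Fibroblast list means ran from 7.10 to 8.49 in the Mki67-high and from 7.50 to 9.71 in the Mki67-low arrays. With the adipocyte and muscle means as covariates 464 genes were called, 425 higher (2.34%) and 39 lower (0.214%), and 223 of the 665 rises and 30 of the 232 falls outside the cell cycle lists kept their call. With the fibroblast and macrophage means as covariates, a fit chosen after seeing the data, 235 were called, 230 higher (1.26%) and 5 lower (0.0275%). Here 54 of the 665 rises and 3 of the 232 falls kept their call in that fit.

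The sizes of the differences changed unevenly between these fits. With fibroblast and macrophage covariates the median of the ribosome biogenesis list was 0.38 with 4 genes called, of the splicing list 0.45 with 3, of the chaperonin list 0.36 with 1, of the nucleotide list 0.33 and of the mitochondrial ribosome list 0.19 with none. Nop56 stood at 0.81 (adjusted p = 0.00384), Hnrnpl at 0.37 (adjusted p = 0.00441), Trim28 at 0.65 (adjusted p = 0.00283) and Btg2 at -0.91 (adjusted p = 0.0094). Hspd1 stood at 0.47 (adjusted p = 0.0539). The MHC class II median was -0.51 with none called. H2-Aa stood at -0.58 (adjusted p = 0.548), Cxcl12 at -0.60 (adjusted p = 0.749) and Igfbp6 at -0.80 (adjusted p = 0.196). Medians turned positive for fibrillar matrix (0.25), mesenchymal (0.28) and interferon response genes (0.19). They stayed negative for endothelial (-0.24), neutrophil (-0.40), T cell (-0.26), B cell and plasma cell (-0.10) and chemokine and cytokine genes (-0.03). No gene of these lists was called in that fit.

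By the control probe sets for RNA quality, the 3' minus 5' difference of Gapdh had medians of 0.29 and 0.30 in the Mki67-high and Mki67-low arrays and that of beta-actin 0.74 and 0.74. The highest values were larger in the Mki67-high class, at 1.18 against 0.67 for Gapdh and 1.70 against 1.15 for beta-actin. With both as covariates 1691 genes were called. Quadruple 5 and triple K5Cre 2 had Xist, a gene of the inactive X chromosome, at 5.72 and 6.999 against class medians of 12.27 and 12.18. Without these 2 arrays 1276 genes were called, among them 26 of ribosome biogenesis, 22 of splicing and 5 of MHC class II.

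The same relation was looked for in the 12 arrays that the ranking did not use, as a slope per log2 unit of Mki67 within the 4 groups. These arrays are not wholly separate, since 2 of the normal glands share an animal with a ranked array. Triple Bcat 2 and triple Bcat 3 came from 1 animal, and so did the 3 ventral tumours. The slopes are therefore in part differences between samples of 1 animal, which entered the fit as a block. There 1 gene was called, 0.0055% of those tested, and it was Pbk, a mitotic kinase, while 1586 had an unadjusted p under 0.05. Without the normal glands limma called 0 genes, and 2305 had an unadjusted p under 0.05. Of the 665 genes that were higher in the Mki67-high arrays outside the cell cycle lists, 579 had a slope above 0 in these arrays, where 50.4% of all genes did, and their median slope was 0.15. Of the 232 that were lower, 86 had a slope below 0, where 49.6% of all genes did, and their median slope was 0.07, of the opposite sign. Slopes were above 0 in 37 of 40 ribosome biogenesis genes (median 0.13), 23 of 24 splicing genes (0.19), 17 of 18 chaperonin genes (0.23), 17 of 19 nucleotide genes (0.23) and 22 of 25 mitochondrial ribosome genes (0.10). They were above 0 as well in 7 of 7 MHC class II genes (0.38), 12 of 15 fibroblast genes (0.33), 13 of 14 macrophage genes (0.71) and 16 of 16 fibrillar matrix genes (0.46), lists whose median difference between Mki67-high and Mki67-low arrays was negative. No gene was called for a difference of slope between the ranked and the other arrays by limma (1389 at an unadjusted p under 0.05), a test added after seeing the data, so these differences of direction are values and not a shown difference.

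Single genes showed both patterns. Nop56 had a slope of 0.16 (SE 0.11), Hspd1 of 0.36 (SE 0.14), Trim28 of 0.29 (SE 0.11) and Mthfd1 of 0.30 (SE 0.09) per log2 unit of Mki67, all above 0. Cybrd1 had the steepest slope of the genes named here, at 1.94 (SE 0.27). Btg2 had -0.11 (SE 0.18), Cxcl12 0.76 (SE 0.58), H2-Aa 0.43 (SE 0.25) and Csf1r 0.35 (SE 0.26). Within the ranked arrays no gene had a slope on Mki67 that differed between quadruple and triple K5Cre arrays by limma (0 called, and 678 at an unadjusted p under 0.05).

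The number of called genes depended on single arrays. Leaving out 1 of the 18 arrays gave 655 to 1771 calls: 655 without triple K5Cre 5, 659 without quadruple 4, 691 without quadruple 13, 751 without quadruple 17, 754 without quadruple 19 and 1771 without triple K5Cre 1. Of the 54 called genes named outside the cell cycle lists, 26 lost their call without triple K5Cre 5, 24 without quadruple 4 and 22 without quadruple 13.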

How the data were processed

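Total RNA of 39 mouse tissue samples was hybridised to Affymetrix arrays, per the labels' protocols, and the authors deposited log2 values for 45101 probe sets, made with RMA, per the submitters' processing notes. RMA corrects background, normalizes between arrays and summarises probes; no source used here gives its version. No detection calls were used, so low values were not separated from background, and precision is limited by how many arrays there are. Gene names came from the platform annotation, updated through a RefSeq table (GRCm38.p6): 34958 carried 1 gene, 932 several and 9211 none. For each of 18194 genes the probe set with the highest mean stood for the gene, and 0 columns were unused. Probe sets whose name ends in _x_at were passed over, even if brighter, unless the gene had no other, as in 100 genes.

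The 27 arrays were ranked by Mki67 (1 probe set) and compared with limma (lmFit, eBayes with trend) in 3 classes with a genotype term and the animal, read from the sample titles, as a random block (duplicateCorrelation, 0.24; 0.52 in the arrays outside the ranking). Fitted differences therefore need not equal differences of printed medians. The members and the 40 lists (1035 of 1118 members measured) were chosen with earlier results of these data known. Lists are described by counts and medians. Named were Mki67, Ctnnb1, Krt5, Krt14, Krt8, Krt18, Axin2, Myc, Ccnd1, Epcam and Xist, the called genes with the 10 highest and 10 lowest differences outside the cell cycle lists (no clone, Riken or predicted names), the 6 highest and 4 lowest correlations with Mki67, 4 genes per cell cycle list, and in 19 other lists up to 2 called rises and 2 falls or the 2 smallest p. Gar1, Dkc1, Fbl, Cd74, Ciita, H2-Ob, Tnfrsf1a, Asb1, Mgat4b, Pbk, Dcn, Fbln1, Rps16 and the 3 Cdkn1 genes were named after their values were seen. So were the called chaperonin and nucleotide genes listed without values of their own.

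Alternatives were no genotype term, the 18 arrays alone, quadruple arrays alone, no block, animal means, a slope on Mki67, 6 or 13 arrays at each end, ranking by the mitosis list, leaving out the dimmest genes, cyclic loess, array weights, all probe sets of a gene, no trend, covariates (adipocyte and muscle, Epcam, RNA quality) and leaving out each array. Chosen once the data had been seen were fits that leave out the 2 Xist-low arrays, the array lowest in Epcam or the 2 highest in adipocyte genes, fibroblast and macrophage covariates, and the slope difference between ranked and other arrays. On simulated data for 18193 genes in this design, 77 of 100 genes changed by 1 log2 unit were recovered. Of 100 changed by 0.5, 38 were called, with direction not checked, and 11 unchanged genes were called. Noise was drawn separately for each gene, without variation shared between genes, so these rates need not hold for the real arrays. R 4.3.3, limma 3.58.1, Python 3.11.15, pandas 2.3.3 and scipy 1.17.1 were used.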

Additional observations from a re-analysis of the deposited data

Results flagged for a closer look

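In 23 of 248 sets of 9 values (named genes and list means in the Mki67-high or Mki67-low arrays) the highest or lowest array stood apart by more than Dixon's 95% critical value of 0.493, where chance flags about 1 in 20. The values are log2.

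In the Mki67-high class quadruple 5 was lowest for Xist (5.72), Snrpf (9.26), the inhibitor and quiescence list mean (9.02) and the immediate early list mean (7.98), and highest for the skeletal muscle list mean (10.71). Triple K5Cre 1 was lowest for Nolc1 (8.01), Pfas (6.84) and the ATF4 target list mean (8.25). In the Mki67-low class triple K5Cre 2 was lowest for Krt5 (5.74), Xist (6.999) and the basal and myoepithelial list mean (6.92), and triple K5Cre 8 was highest for Tex36 (7.92), Adamts20 (5.83) and Tal2 (4.84). Quadruple 16 was highest for Trim28 (10.15) and Hnrnpl (10.30). Quadruple 9, which had the lowest Mki67, was lowest for Rad51ap1 (5.47), Snrpf (8.94) and the mitosis (6.67) and p53 target (8.26) list means, and highest for the milk protein list mean (13.70). Quadruple 2 was highest for the B cell and plasma cell (9.80) and MHC class II (10.87) list means.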

How the results depend on the processing

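The count of 1149 called genes became 496 in the quadruple arrays alone, 645 with 1 mean per animal and a slope, 765 with a slope over 27 arrays, 398 with 13 arrays at each end, 464 with adipocyte and muscle covariates, 235 with fibroblast and macrophage covariates, 643 without the 2 arrays highest in adipocyte genes and 5128 with array weights, and 655 to 1771 without 1 array. The slope over 27 arrays and the arrays at each end change the classes themselves, and for the other settings the cause was not tested. It stayed within 1.5 times of the main count under the other alternatives. In the arrays outside the ranking the 1 call became 0 with cyclic loess and 0 to 2 without 1 array. Of the values of called named genes under all alternatives 1566 kept their call, 533 lost it and none reversed. Among genes not called, Krt14 reversed to -0.12, Krt8 to 0.0557 and Krt18 to 0.18 with 6 arrays at each end, and Krt18 to 0.0657 ranked by the mitosis list. Epcam reversed to -0.26 with a slope, -0.30 with 13 arrays, -0.51 ranked by the mitosis list, -0.42 with fibroblast and macrophage covariates and ran from -0.0196 to 0.32 without 1 array, negative without quadruple 17. Xist reversed to -0.92 in quadruple arrays alone, -0.0714 with a slope, -0.19 with 6 arrays, -0.0315 with cyclic loess, -0.23 with adipocyte and muscle covariates, -0.0014 with the Epcam covariate and ran from -0.56 to 0.78 without 1 array. Scoring by the mean of all Mki67 probe sets was not run, since 1 probe set names the gene. No paired analysis of Mki67-high against Mki67-low arrays was possible because no animal gave an array to both classes. Low values limit what can be said of genes near background.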

Other observations

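Among the 56 genes outside the cell cycle lists whose Mki67-high arrays all lay above the Mki67-low arrays (0.775% of all genes tested did so, cell cycle genes included), the following were picked after their values were seen and are described only. Hirip3, a histone chaperone, ran from 8.15 to 9.39 (median 9.26) against 7.42 to 8.10 (median 7.93), a difference of 1.17 (SE 0.16, adjusted p = 8.4e-05, limma). Actl6a and Smarce1, subunits of SWI/SNF remodelling complexes, differed by 0.66 (SE 0.11, adjusted p = 0.000343) and 0.49 (SE 0.10, adjusted p = 0.0024). Kat2a, a histone acetyltransferase, Kdm1a, a histone demethylase, and Ash2l, a subunit of histone methyltransferases, differed by 0.47, 0.44 and 0.48. All 6 stayed called in all 18 fits without 1 array. Dnmt3b, a DNA methyltransferase that sets new methylation, ran from 6.79 to 7.89 (median 7.20) against 5.75 to 6.33 (median 6.12), but its difference of 1.10 (SE 0.39) had an adjusted p of 0.0925. Tfap4, a transcription factor known as a Myc target, had medians of 6.23 and 5.46 and a difference of 0.78 (SE 0.16, adjusted p = 0.00397).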
